A study of Rattus norvegicus with 18 samples.

Results

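Bacterial communities in rat samples, labelled both as stool and as intestinal contents, were read by sequencing the 16S rRNA gene, and 132 of the 8405 sequence features counted had no read in any of 6 control libraries yet recurred in the other groups. A feature is a distinct 16S sequence with its read count per library. The members were chosen by their counts: 0 in all 6 control libraries and at least 1 in 4 or more of the 12 Model and TG libraries. Presence and absence in control therefore chose the members and are not a result, and no contrast with control was tested. All animals are labelled wild-type Rattus norvegicus and all libraries carry the same batch label. Control rats (n = 6) were untreated, Model rats (n = 6) had radiation enteritis induced, and TG rats (n = 6) are labelled as given a therapeutic intervention, with the group entry "TCM treatment". Age, sex, strain, radiation dose, agent and sampling time are not stated there. The labels name disease induction for the Model group and do not say rat by rat that TG animals were irradiated. They call the replicates biological without naming animals, so p-values measure the spread between these samples.

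The 16S rRNA gene is carried by every bacterium, often in several copies per genome whose sequences can differ slightly, so a single organism can yield more than 1 feature. The healthy rodent gut is dominated by strict anaerobes that ferment fibre and mucus. Radiation enteritis is injury of the bowel lining by ionising radiation and is known to be accompanied by shifts in gut bacteria. A share of reads is relative: a feature can gain share because it grew or because others shrank, and these cannot be told apart from shares.

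Read totals were 33076 to 40192 in control, 30958 to 33342 in Model and 23894 to 40575 in TG. Control was thus the deepest group, with 223249 counts against 193760 in Model and 177025 in TG, and a count of 0 over all control libraries allows a share of up to 0.00134% (3 counts). In a single control library it allows 0.00746% to 0.00907%. PCR copies were not marked by molecular identifiers, so these limits cover counting error only. The libraries Model 3, TG 5 and Model 1 stood apart with 198, 276 and 278 features, against 446 to 1078 in the other 15. Their depth was not low, at 33342, 40575 and 32295 counts. Count and taxonomy tables share 0 identifiers, so no member has a taxon or a sequence here. Members are numbered F1 to F132 by mean share over the 12 Model and TG libraries, highest first.

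Of 379 features seen in at least 4 of the 12 libraries, the 132 members made up 34.8% and the other 247 had a control count. Features with 0 control counts numbered 5668, and 5263 of them came from a single library. At the edge of the rule, 48 members were seen in exactly 4 libraries, with a median of 126 counts (18 to 434). Just outside it, 84 features without control counts were seen in 3 libraries, with a median of 75 counts (20 to 231). A further 78 features recurred in at least 4 libraries but had counts in 1 control library, with a median of 19 control counts and a range of 1 to 72. The cut at 4 libraries thus runs through a continuous range of features.

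The members' summed share varied widely between libraries. In Model it was 1.60%, 11.8%, 1.33%, 10.7%, 37.8% and 5.07% in libraries 1 to 6. In TG it was 12.2%, 26.3%, 24.2%, 18.7%, 16.5% and 28.9%. Model 5 was the highest library of all, every TG library exceeded the other 5 Model libraries, and the groups overlapped through Model 5 alone. TG libraries averaged 21.1% ± 6.41 (SD, n = 6), against 11.4% ± 13.7 (SD, n = 6) for Model libraries. The difference of 9.76 percentage points was below the pooled SD of 10.7 and has no test, because a sum over chosen members gets none. It was 15.0 percentage points without Model 5 and 5.73 without the 3 libraries of fewest features. The 247 recurrent features with a control count averaged 54.0% ± 14.0 (SD, n = 6) of TG counts, against 73.2% ± 20.1 (SD, n = 6) of Model counts.

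The number of members detected also varied. At the depth of the shallowest library it was 16.0, 88.8, 21.9, 82.0, 68.0 and 43.0 in Model 1 to 6, and 71.0, 88.0, 97.8, 83.0, 39.0 and 70.0 in TG 1 to 6. The 3 libraries of fewest members were those of fewest features: Model 1, Model 3 and TG 5 held 68, 83 and 81 of the 247 other recurrent features. Model 6, next lowest with 43 members, was not low in features, with 826 in all and 153 of the other recurrent ones. TG libraries averaged 74.8 ± 20.4 members (SD, n = 6), against 53.3 ± 30.9 (SD, n = 6) for Model libraries. Features of all kinds at that depth also averaged more in TG, 826 ± 282 against 634 ± 322 in Model (SD, n = 6 each). At full depth members made up 9.61% ± 2.42 of the features detected in TG libraries and 8.33% ± 2.33 in Model libraries (SD, n = 6 each). The difference of 21.5 members lay within the pooled SD of 26.2. It was 14.1 without Model 1 and 11.5 without the 3 libraries of fewest features. TG 5 joined few members to a summed share of 16.5%, and 46.8% of its member counts came from its 3 leading members. Low richness and few members went together in Model 1, Model 3 and TG 5 but not in Model 6, and the part of the former in the latter was not tested.

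**Figure D1:**
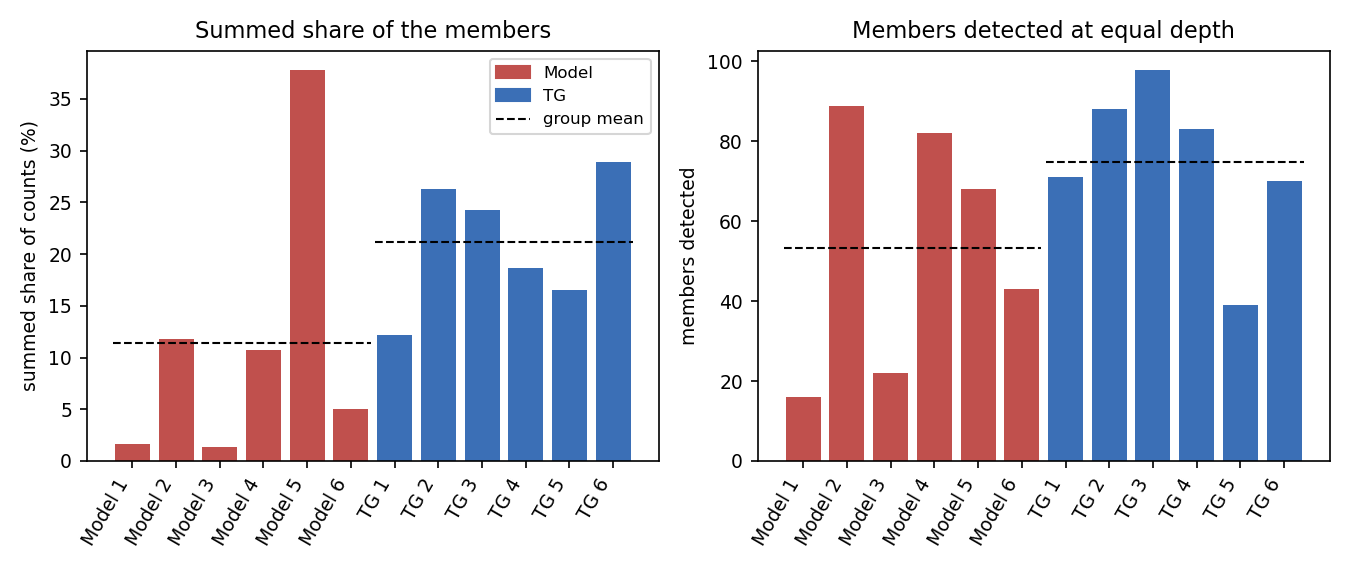
Summed share of the 132 members in percent of all counts (left) and number of members detected at equal depth (right) in each Model and TG library. Bars are single libraries and dashed lines are group means: Model 5 holds 37.8% of its counts in members, while Model 1 and Model 3 hold 1.60% and 1.33%.

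Few members were common to many rats. F1 was the only member seen in all 12 libraries, 7 members were seen in 11, and 48 were seen in 4, the minimum of the rule. All 132 were seen in TG and 127 in Model, 15 were seen in all 6 TG libraries and 1 in all 6 Model libraries. The members seen in TG without any Model count were 5, and none was seen in Model without a TG count. Model 1 and Model 3, poor in features of all kinds, held 16 and 22 members and shared 5. No more than those 5 could be seen in all 6 Model libraries. The matching numbers for the other recurrent features were not recorded, so these counts cannot be read as a trait of the members. More TG than Model libraries held 71 members (53.8%), more Model libraries held 15 (11.4%), and 46 were level. For the 247 other recurrent features these shares were 43.3% and 23.9%. Fisher's exact test (two-sided) on the number of libraries with a count, adjusted over all 379 features, called 0 members, with a background of 0% called. At an unadjusted p under 0.05 it listed 2 of 132 members, F26 and F89, both in more TG libraries, against 1.06% of all features tested. F26 and F89 met the rule through TG libraries alone, so their direction is partly fixed by the choice. The number listed was 7 without TG 5, 6 without Model 5 and 4 without Model 2, Model 4 or TG 1, and 7 without the 3 libraries of fewest features. The share of all features listed in those settings was not recorded, so these numbers cannot be read as an excess of members. The smallest p that 6 against 6 libraries allow is 0.00216, and 17 features would have to reach it for any call, so this test could hardly call a member.

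**Figure D2:**
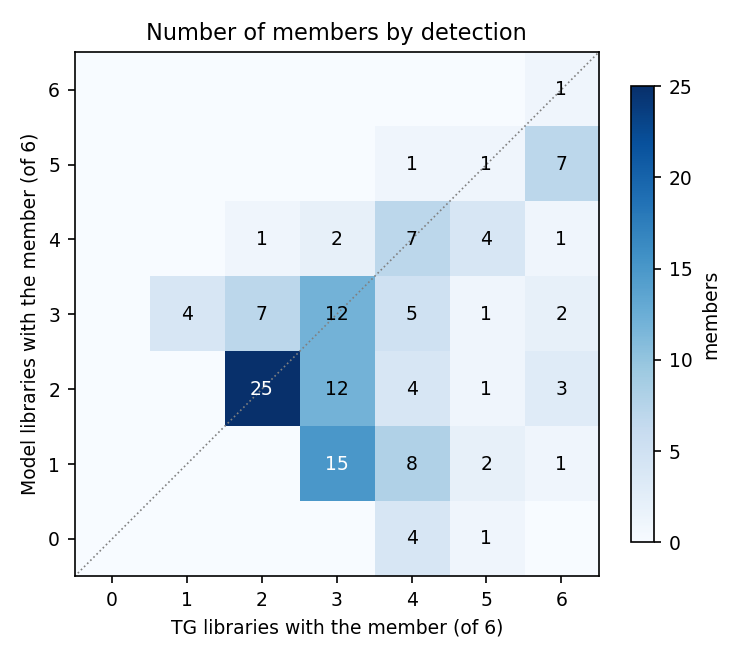
Number of members by how many of 6 TG libraries (x axis) and 6 Model libraries (y axis) held them, with equality on the dotted line. The largest cell, 25 members, is at 2 Model and 2 TG libraries, and 71 of 132 members lie below the line.

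When a member was present, it was rarely at the edge of detection. Of 1584 combinations of member and library, 769 (48.5%) held a count. The median count there was 39, the quartiles were 20 and 64, and 16 of the 769 counts were under 5. The mean share ranged from 0.00231% for F132 to 1.58% for F1, with a median of 0.0554%. The 3 leading members carried 26.0% of the members' summed mean share and the leading 10 carried 44.1%. In 13 members a single library held over 50% of the counts. Model 6 held 59.1% of those of F24 and 65.4% of those of F38.

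**Figure D3:**
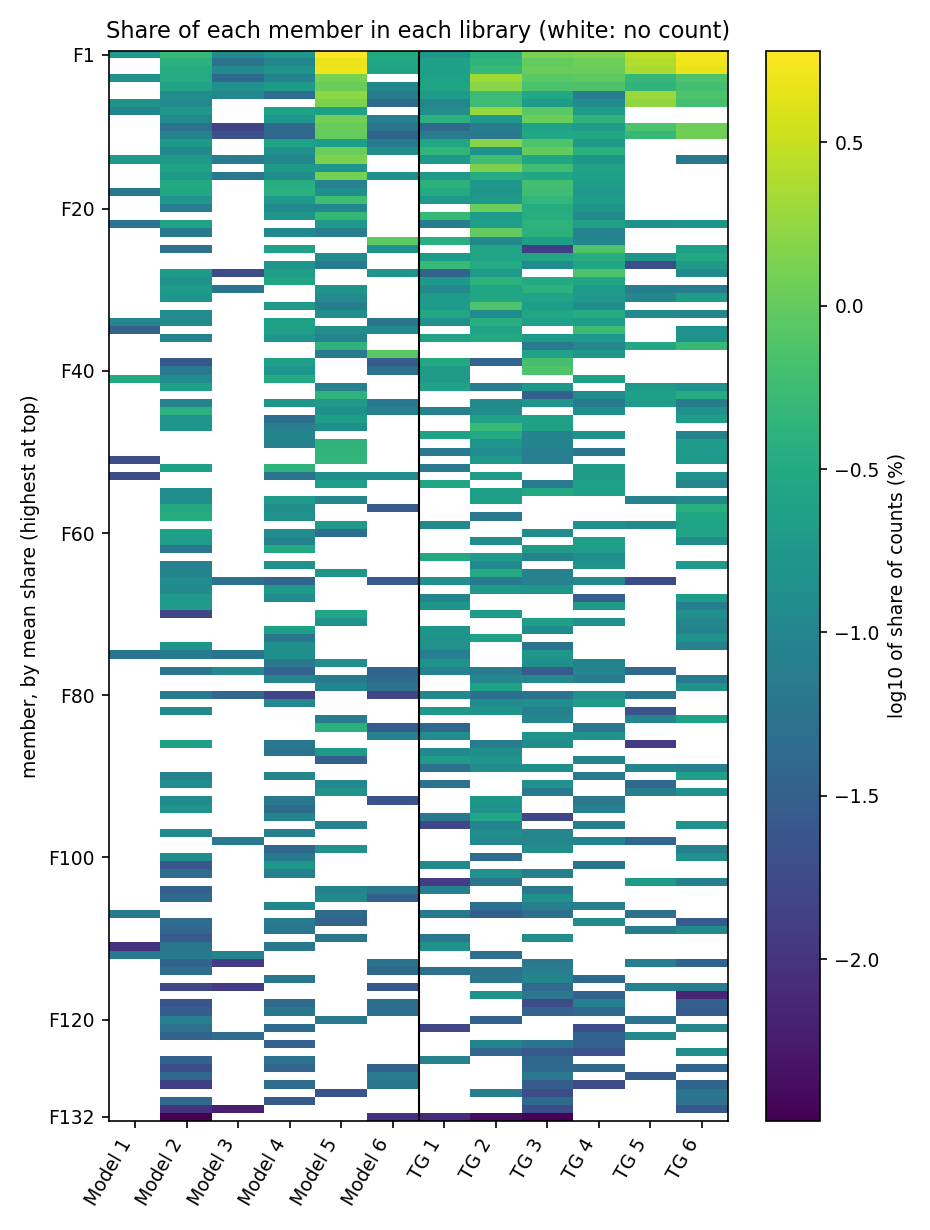
Share of each of the 132 members (rows, F1 at the top) in each of the 12 libraries (columns), on a log10 scale of percent of counts. White cells have no count, and the leading rows are brightest in Model 5 and TG 6.

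The leading member, F1 (identifier 2eb0317b744004410680039ca426a1c1), made up 0.189%, 0.494%, 0.114%, 0.169%, 6.03% and 0.311% of Model 1 to 6. In TG 1 to 6 it made up 0.174%, 0.385%, 1.33%, 1.40%, 2.86% and 5.49%. It was thus above 1% in Model 5 and in 4 of 6 TG libraries, and the groups overlapped. Against the control limit it was at least 1525-fold higher in TG, a description of how it was chosen. Between TG and Model its log2 fold change was 0.38 (SE 0.91, edgeR adjusted p = 1), 2.87 without Model 5 and -0.19 without TG 6.

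F1 led a set of 7 members that rose and fell together, with F2, F3, F10, F11, F37 and F43 (group 1). Members were joined into a set by average linkage at a correlation of 0.9 or more between square-rooted shares over the 12 libraries. Group 1 held 18.8% of Model 5 and 0.189% to 1.39% of the other Model libraries. In TG it held 0.759% at the lowest, 4.22% at the median and 18.3% in TG 6. The pairwise correlations were 0.952 or higher, a description over 12 points that share library and depth and lean on Model 5 and TG 6.

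For the most abundant members of group 1, ratios varied much less than the level. F1's share spanned 52.9-fold over the 11 libraries that held both F1 and F3. The count of F3 was 0.699 to 1.30 times that of F1 there, with a median of 0.832. F2 stood at 0.474 to 1.36 times F1, with a median of 0.825. F10 had a median ratio of 0.196 to F1 (0.111 to 0.255) and F11 one of 0.190 (0.118 to 0.455). The ratios of F37 were 0.0552 to 0.103 and those of F43 were 0.0240 to 0.0888, where F1 itself spanned 4.53-fold. F37 and F43 were counted in the same 5 libraries, Model 5, TG 3, TG 4, TG 5 and TG 6, which are those where F1 exceeded 1%. In Model 1 F1 had 61 counts and the other 6 members had 0.

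**Figure D4:**
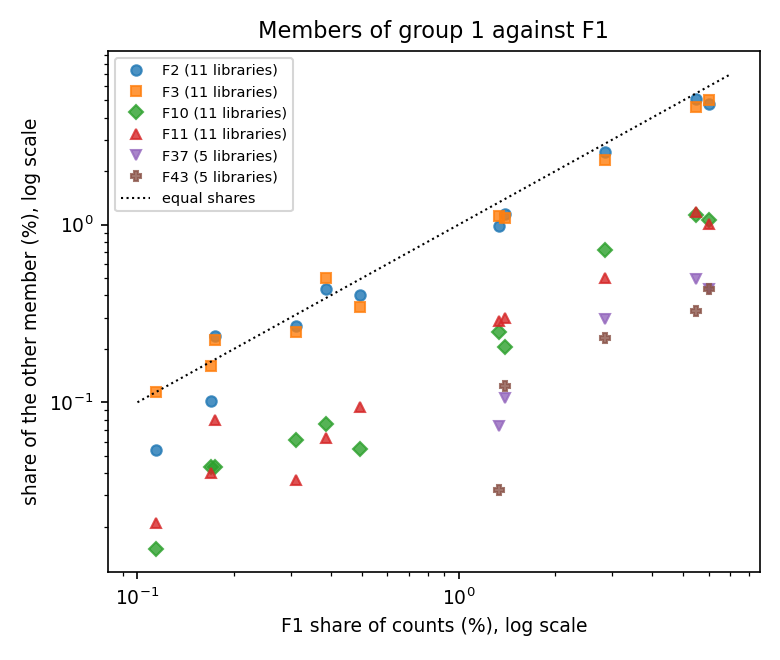
Share of 6 group 1 members (y axis, log scale, percent) against the share of F1 (x axis, log scale, percent), one point per library where the member had a count. F2 and F3 lie close to the line of equal shares, F10 and F11 run below it, and F37 and F43 appear only at F1 shares above 1%.

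Further sets had library profiles of their own. F4 and F5 (group 3) held 0.107% to 2.40% of Model libraries with a median of 0.238%, and 0.522% to 3.63% of TG libraries with a median of 1.49%. They peaked in TG 2 and Model 5. F5 was counted at 0.759 to 3.36 times F4 in the 10 libraries with both. F6 and F7 (group 4) peaked at 3.67% in TG 5 and 3.02% in Model 5, and held 0.0493% to 1.37% of the other libraries. At least 1 member of each of groups 1, 3 and 4 was found in every Model and TG library. All members of the group were found together in 5, 10 and 9 of the 12 libraries, respectively.

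Other sets were missing from whole libraries. Group 2, with F8, F12, F15, F20 and F23, held 6.78% of TG 2, 2.98% of TG 3 and 0.0732% to 0.924% of 7 other libraries. It had no count in Model 3, TG 5 or TG 6. Group 5, with F9, F13 and F19, held 2.89% of Model 5 and 2.53% of TG 3, and had no count in Model 1, Model 3, TG 5 or TG 6. F17 and F18 (group 6) reached 1.22% in TG 3 and 0.730% in Model 4. They had no count in Model 3, Model 6, TG 5 or TG 6. In these 3 sets TG 5 and TG 6 lacked counts, the libraries where group 1 was highest among TG.

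**Figure D5:**
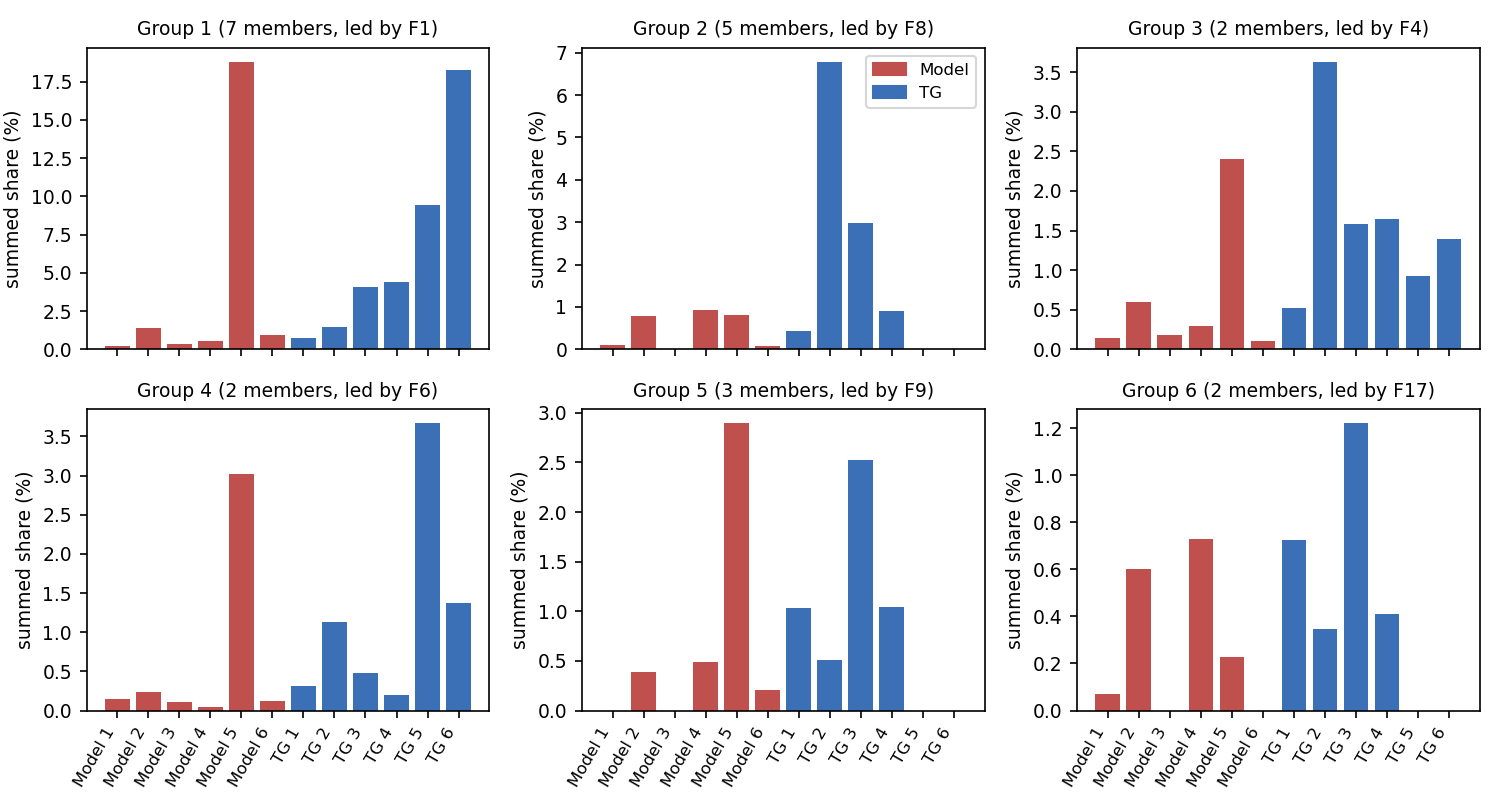
Summed share in percent of counts of the 6 leading co-occurrence groups in each Model and TG library, with a separate y axis per group. Groups 2, 5 and 6 have no bar in TG 5 and TG 6, while group 1 is highest there among TG libraries and in Model 5.

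Over all members, 65 fell into 25 groups of 2 or more and 67 stood alone, 92 groups in all. Formed the same way, groups of 2 or more took in 49.2% of members and 59.1% of the other recurrent features. The sets hold 132 and 247 features, and a larger set offers each feature more partners. Per pair, a correlation of 0.9 or more was found in 0.925% of pairs of members and 0.655% of pairs of the others. Detection gave 99 distinct patterns over the 12 libraries. The most shared pattern, present in all libraries but Model 1, was that of F2, F3, F5, F6, F10 and F11. F81, F106, F115 and F123 were each seen in Model 4, TG 2, TG 3 and TG 4 only. F118, F119, F126 and F128 shared another pattern, in Model 2, Model 4, Model 6, TG 3, TG 4 and TG 6. Of the 8646 pairs of members 100 (1.16%) were never seen in the same library, against 0.757% of pairs of the other recurrent features. The median overlap of a pair (libraries with both over libraries with either) was 0.375, against 0.417 in those features. By correlation of square-rooted shares the order was the other way, with a median of 0.177 for pairs of members and 0.0705 for the others, and values below 0 in 30.1% and 43.4% of pairs.

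Between libraries, the overlap (members in both over members in either) had a median of 0.400 within TG, 0.233 within Model and 0.326 from Model to TG. For the other recurrent features these medians were 0.456, 0.416 and 0.434. The pair with the most overlap was Model 2 and Model 4, at 0.598, which shared 64 members, 71.9% and 78.0% of their lists. Model 1 and Model 6 overlapped least, at 0.0926, with 5 shared members. These are descriptions without a test, and the low overlaps involve libraries with few members.

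TG against Model is a difference between groups of libraries and not a change followed within rats. The rule for members pooled these groups and did not use the contrast between them. edgeR's quasi-likelihood test, fitted on the 431 features with at least 10 counts in 4 libraries, covered 112 members. With Benjamini-Hochberg adjustment it called 0 of them, while 1.39% of all tested features were called. At an unadjusted p under 0.05 it listed 2 of the 112 members (1.79%), against 10.2% of all features. That listing rested on the libraries kept: it was 17 members (15.2%, against 16.2% of all features) without Model 5. It was 9 (8.04%, against 15.5%) without Model 4, 5 (4.46%, against 13.2%) without Model 2 and 4 (3.57%, against 13.0%) without Model 6. DESeq2 called 0 and listed 2, with 0.464% of all features called and 6.5% listed. An exact permutation test of centred log-ratios (two-sided) called 0 members and 0% of all features. Its smallest possible p is 0.00216, so many features would have to reach it for any call, and it could hardly call a member. The test listed 7 of 112 members (6.25%), all higher in TG, against 6.5% of all features. Each of these 7 was seen in 4 to 6 TG libraries and 0 to 2 Model libraries, so TG alone met the rule. Their direction is therefore partly fixed by the choice. No member was shown by these tests to differ between TG and Model, which does not show that they are alike.

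The fitted changes leaned towards TG without passing. The log2 fold change was above 0 for 85 of the 112 members (75.9%) and for 56.6% of all tested features. The median was 0.66 for members and 0.27 for all. These comparisons are not like for like. Members have 0 control counts and could pass the count filter only through Model and TG, while other features could also pass through control. For members that passed through TG alone, the direction is partly fixed by that choice. Under RLE scaling the medians were 1.05 and 0.78, so all features moved with the scaling. Relative to the median of all features, 67.9% of members lay above it, and 59.8% under RLE scaling. That share was 56.25% without the 3 libraries of fewest features and 72.3% without Model 5. Without those 3 libraries the log2 fold change was above 0 for 72.3% of members and 63.6% of all features.

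F26 (identifier f2505cd832563121618565b3dfcc6881) separated the groups by share. It had 0 counts in 5 Model libraries and 0.122% in Model 5. In TG 1 to 6 it held 0.198%, 0.264%, 0.281%, 0.354%, 0.160% and 0.314%. All 6 TG libraries exceeded every Model library, which held for 1 member and for 0.264% of the 379 recurrent features. The opposite, all Model libraries above all TG libraries, held for 0 members and 1.06% of those features. F26's log2 fold change was 3.26 (SE 2.34, edgeR adjusted p = 1). The exact permutation test of centred log-ratios gave p = 0.00433 (two-sided, adjusted p = 0.311). Without Model 5 the remaining Model libraries had no count of it, and edgeR's adjusted p was 0.1. The TG counts of F26 alone met the rule for members and the count filter. Its excess in TG, and so its p-values, are partly fixed by that choice.

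F63 and F89 had no Model count, so they met the rule for members and the count filter through TG alone, and their excess in TG is partly fixed by that choice. F63 held 0.312%, 0.188%, 0.0958% and 0.131% of TG 1 to 4 and was not counted in TG 5 or TG 6. It was at least 69.7-fold higher in TG, against 3 counts over the Model group (edgeR adjusted p = 0.153). F89 held 0.0514% to 0.137% of 5 TG libraries and was not counted in TG 4. It was at least 54.7-fold higher (edgeR adjusted p = 0.153). These were the 2 members that edgeR listed before adjustment. F27 was seen in all 6 TG libraries, at 0.0197% to 0.525%, and in Model 4 and Model 5 at 0.160% and 0.0689%, so its groups overlapped.

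Some members leaned the other way without passing. F112 (identifier 1b5ef0691a7264948b5e82e4a7ab635e) was seen in Model 1, 2 and 3 at 0.0743%, 0.0678% and 0.0930%, and in TG 2 at 0.0502%. It had the lowest log2 fold change of the tested members, -2.30 (SE 2.39, edgeR adjusted p = 1), which was -6.69 without TG 2 (no TG count left), -1.29 without Model 1, -1.31 without Model 3, -0.57 without the 3 libraries of fewest features and -1.07 under RLE scaling. F57 (identifier a232e526a284004c829ae87b4c2771e5) held 0.313%, 0.132% and 0.0275% of Model 2, 4 and 6 and 0.365% of TG 6. It was below the count filter of the edgeR fit, and Fisher's exact test on its detection gave p = 0.545 (adjusted p = 1). F75 was seen in 4 Model and 2 TG libraries, at 0.0588% to 0.176%, and F105 in 3 Model and 1 TG library, at 0.0336% to 0.140%. Where present, F112 was lower in TG than in any Model library that held it, F57 and F105 were higher, and F75 overlapped.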

How the data were processed

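The authors deposited whole read counts per sequence feature for 18 libraries, a BIOM export by its file header. Reads had been denoised and clustered, per the series labels. Tools, versions and filters are not stated there. How these steps split or drop rare sequences decides which counts are 0. Shares are counts over a library's total. Equal-depth numbers are hypergeometric expectations at 23894 counts. TG and Model were compared with edgeR 4.0.16 in R 4.3.3 (TMM, glmQLFit and glmQLFTest, all 18 libraries, a minimum of 10 counts in 4 libraries per feature, adjusted p under 0.05), with DESeq2 1.42.0 as an alternative. The SE printed with an edgeR log2 fold change was worked back from the test, as its absolute value over the square root of the F statistic. Centred log-ratio values used a pseudocount of 0.5. Code was tested on simulated data. Python 3.11.15 was used with scipy 1.17.1, pandas 2.3.3, numpy 2.4.6 and, for plots, matplotlib 3.10.9.

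Members and lists were chosen with earlier results of these data known. Named members are the 10 of highest mean share, up to 6 of those seen in all 12 libraries, the 3 with the largest excess of libraries in each group, any called member, the leading member of the 5 highest co-occurrence groups, and the largest rise and fall. F11 to F13, F15 to F21, F23, F24, F29, F32, F34, F37, F38, F43, F81 with its pattern, F118 with its pattern and F132 were named after their values were seen. Replicate numbers were not used as pairs in the main fit. Same-numbered samples showed little likeness, as the closing part on processing shows. The taxonomy table was not used.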

Additional observations from a re-analysis of the deposited data

Results flagged for a closer look

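In 19 of 38 group values examined, a single library lay far from the rest of its group by Dixon's ratio, which chance gives in about 1 in 20 groups. That rate holds for normal values and not for shares with many zeros, and several members were named for being seen in few libraries of a group, which favours such gaps. The values are not independent, since members of a co-occurrence group move together and most come from Model 5. In that library the summed share of members was 37.8% (next 11.8%). F1 stood there at 6.03% (next 0.494%), F2 at 4.80% (next 0.404%), F3 at 5.01% (next 0.346%) and F4 at 1.32% (next 0.336%). F5 was at 1.08% (next 0.262%), F6 at 1.68% (next 0.129%), F7 at 1.34% (next 0.149%), F9 at 1.22% (next 0.169%) and F10 at 1.06% (next 0.0610%). F26 was at 0.122% in Model 5 and absent from the other 5, and F105 was at 0.116% (next 0.0420%).

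Among TG libraries, TG 2 was high for F4 at 2.06% (next 0.918%) and F5 at 1.57% (next 0.730%). TG 5 was high for F6 at 1.95% (next 0.733%) and F7 at 1.72% (next 0.639%). F57 at 0.365% in TG 6, F105 at 0.140% in TG 3 and F112 at 0.0502% in TG 2 were each the only TG library with a count.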

How the results depend on the processing

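The rule gave 132 members, 216 when 3 libraries sufficed, 84 when 5 were required, and 104 to 165 with 1 library left out. Calls between TG and Model stayed at 0 members in the 25 other settings of that comparison, with a lowest adjusted p over members of 0.1 to 0.596. In 7 of the edgeR settings no feature of any kind was called, so those settings say little of members. The detection test and the exact permutation test could hardly make calls. With 1 library left out, the summed share difference was 7.74 to 15.0 percentage points, the difference in members detected 14.1 to 28.7 and the number of co-occurrence groups 81 to 91. F1's log2 fold change ran from -0.19 (without TG 6, reversed) to 2.87 (without Model 5) and F112's from -6.69 to -1.29; the causes were not tested. F26's reached 9.32 without Model 5, a fitted value against Model libraries at 0 and no bound. Without the 3 libraries of fewest features, chosen after seeing the data, there were 121 members and 85 groups, and the log2 fold changes of F1 and F112 were 0.011 and -0.57. The same-numbered Model and TG samples had correlations of -0.281 to 0.130 in their deviations from the group means, so they showed little likeness. That does not settle whether the numbers carry a pairing. With the replicate block 0 members were called (lowest adjusted p = 0.596) and F26's log2 fold change was 7.83. A member of 1 count in a library is at the limit of what these depths can show.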

Other observations

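Of the 36 members counted in each of TG 1 to TG 4, 14 were counted in neither TG 5 nor TG 6. They were F8, F9, F12, F13, F16 to F19, F21, F24, F29, F32, F34 and F63. This list was drawn after the values were seen. TG 6 was not short of members, with 70 against 71 in TG 1, while TG 5 held 39 members among only 276 features. The matching number for the other recurrent features was not recorded, so the 14 cannot be read as a trait of the members. A zero could also sit beside a well-counted partner: F4 had 0 counts in Model 6, where F5 had 35, and F7 had 0 counts in Model 3, where F6 had 35.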
